A study of Mus musculus with 3 samples.

Results

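Linked genes of the Zic family were examined in heads of E9 mouse embryos, of which the rostrum (the anterior portion) was dissected. The rows of the count tables for the head-to-head gene pairs *Zic1* with *Zic4* and *Zic2* with *Zic5* were taken, 4 genes of 24062. One library was from *tuft*/*tuft* embryos with a neural tube defect, which carry a nonsense mutation in the methylcytosine dioxygenase gene *Tet1*, and the other was from the 3H1 Balb wild-type background strain. Both were at 18 to 22 somites, and RNA of 3 embryos was pooled for each library. There are therefore 2 columns of counts, called libraries here. No value has a replicate error, and every difference given here is between these libraries. Of the 2 *tuft* samples in the records, it is not stated which one the single *tuft* column of counts holds, or whether it holds both. The mutation is carried in the germline and is not limited to a tissue. The pool was made of embryos that were already malformed, so the genotype and the open neural folds cannot be told apart.

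ZIC proteins are zinc finger transcription factors related to the GLI proteins, the effectors of hedgehog signaling. They are expressed in the dorsal neural tube, the neural crest and parts of the mesoderm. Mutations in *Zic2* cause holoprosencephaly and open neural tube defects, and mice without *Zic5* have defects of neural tube closure and of the neural crest. *Zic1* and *Zic4* act in the cerebellum, where their joint deletion is associated with Dandy-Walker malformation. The genes of each pair are transcribed away from each other on opposite strands.

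In GRCm38 (mm10), *Zic1* is on the minus strand of chromosome 9 from 91358058 to 91365768 and *Zic4* on the plus strand from 91365631 to 91389351. Their annotated ends overlap by 138 bases. *Zic5* is on the minus strand of chromosome 14 from 122459160 to 122465658 and *Zic2* on the plus strand from 122475384 to 122480328, with 9725 bases between them. The 250 bases before an annotated transcript start are shown for 3 of the linked genes, because *Tet1* encodes an enzyme that acts on methylated CpG dinucleotides. For *Zic4* this start lies inside the gene and not at its annotated end. They are RefSeq sequences of GRCm38.p6, written 5′ to 3′ on the strand of the gene with each CpG in capitals. The *Zic1* window is chr9:91365769-91366018 on the minus strand, the *Zic4* window is chr9:91368722-91368971 on the plus strand and the *Zic5* window is chr14:122465659-122465908 on the minus strand.

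Zic1: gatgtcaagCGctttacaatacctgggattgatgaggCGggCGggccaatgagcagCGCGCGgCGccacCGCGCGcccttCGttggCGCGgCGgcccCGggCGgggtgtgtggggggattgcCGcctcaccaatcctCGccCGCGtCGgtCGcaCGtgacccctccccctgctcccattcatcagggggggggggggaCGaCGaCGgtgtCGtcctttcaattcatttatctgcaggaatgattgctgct

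Zic4: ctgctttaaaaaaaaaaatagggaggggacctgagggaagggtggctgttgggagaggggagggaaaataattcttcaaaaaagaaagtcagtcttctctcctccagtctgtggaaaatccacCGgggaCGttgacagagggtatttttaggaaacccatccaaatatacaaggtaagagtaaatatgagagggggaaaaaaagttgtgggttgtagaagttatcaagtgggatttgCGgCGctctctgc

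Zic5: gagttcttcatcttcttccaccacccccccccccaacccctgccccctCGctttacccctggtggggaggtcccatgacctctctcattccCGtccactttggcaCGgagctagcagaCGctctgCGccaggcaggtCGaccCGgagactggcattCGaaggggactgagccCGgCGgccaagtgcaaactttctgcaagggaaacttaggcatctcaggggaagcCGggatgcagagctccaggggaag

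The 3 windows differed in CpG content. The *Zic1* window held 27 CpGs, and 8.56% of the 32851 promoter windows of the same length held at least as many. The *Zic5* window held 11 CpGs (35.6% of windows held at least as many) and the *Zic4* window 4 (62.2%). The median over all windows was 6. The *Zic1* window also lies inside the annotated *Zic4* gene, and so does the *Zic4* window, which precedes a transcript start inside the gene. Methylation was not measured in these libraries. Both strands were searched for 4 short motifs, none of which holds another. The letters CCAAT occurred 2 times in the *Zic1* window and not in the other two, and 33.8% of all windows held them. The letters CAGCAGG, a motif bound by ZIC proteins, GACCACCCA, a motif bound by GLI proteins, and TATAAA, the TATA box, were in none of the 3 windows, against 8.44%, 0.225% and 12.4% of all windows. The window of *Zic2* was not analyzed here.

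The coding sequences of the family are alike in the zinc fingers, which bears on how reads were assigned. Between the longest coding sequences of NCBIM37, the longest identical run of any 2 members was 42 bases, in *Zic1* and *Zic4*. It is shown with the 30 bases in capitals that *Zic2* holds as well.

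Zic1 and Zic4: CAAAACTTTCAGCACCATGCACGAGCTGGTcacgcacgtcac

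The corresponding run was 35 bases for *Zic1* and *Zic2* and 26 bases for *Zic2* and *Zic5*. A read longer than these runs differs between members by at least 1 base. A shorter read from such a run can align to several members, and such alignments are among the entries that were not counted on genes.

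The wild-type library held 14251942 counts on genes and the *tuft* library 6433067, and 16914 and 11795 genes had at least 1 count. Levels are given as counts per 1000000 counts of the library total after scaling by the trimmed mean of M-values (TMM), called normalized CPM. Intervals are exact 95% intervals and cover counting error only, as each genotype has 1 library. The reads carry no molecular identifiers, so amplified copies are counted as separate reads and the intervals may be too narrow. *Tet1* itself had 435 counts in wild type and 32 in *tuft*, a fold change of 0.214 (0.145 to 0.307). Of 9 genes of the neural plate, which the rostrum should express, all had counts in both libraries. *Sox2* had 2052 and 675 counts and *Otx2* 2104 and 990, whereas *Ncam1*, a neural cell adhesion molecule, had 177 in wild type and 1 in *tuft*. For a gene with 0 counts in a library, 3 counts were taken, which is 0.184 normalized CPM in wild type and 0.535 in *tuft*. The exact 95% limit is higher, at 0.657 for *Zic4* in *tuft*.

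After TMM scaling the summed level of the 4 genes was close in both libraries, but its make-up differed. *Zic1*, *Zic4* and *Zic5* were lower in *tuft*, and *Zic2* was higher by less than 2-fold. In wild type *Zic1* held most of their counts and in *tuft* *Zic2* did. In pooled tissue, fewer cells that express a gene and less RNA per cell cannot be told apart.

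*Zic1* had 1203 counts in wild type and 161 in *tuft*. This is 73.6 normalized CPM (69.5 to 77.9) against 28.7 (24.4 to 33.5), a fold change of 0.390 (0.329 to 0.460). The interval lies wholly below a fold change of 1. *Zic4*, its neighbor, had 81 counts in wild type and none in *tuft*. Its level in wild type was 4.96 normalized CPM (3.94 to 6.16). With 3 counts taken for *tuft*, *Zic4* was 9.27-fold lower, and by its exact interval it was at least 7.37-fold lower. Both genes of the chromosome 9 pair were thus lower in the *tuft* library.

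*Zic2* had 760 counts in wild type and 485 in *tuft*, although fewer reads were counted in *tuft*. Its level was 46.5 normalized CPM (43.3 to 49.9) in wild type and 86.4 (78.9 to 94.5) in *tuft*. The fold change was 1.86 (1.65 to 2.09), under the 2-fold limit used here. *Zic5*, its neighbor, had 60 counts in wild type and 3 in *tuft*. This is 3.67 normalized CPM (2.80 to 4.73) against 0.535 (0.110 to 1.56), a fold change of 0.146 (0.0292 to 0.446). The genes of the chromosome 14 pair therefore lay on opposite sides of a fold change of 1, by more than counting error.

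**Figure D1:**
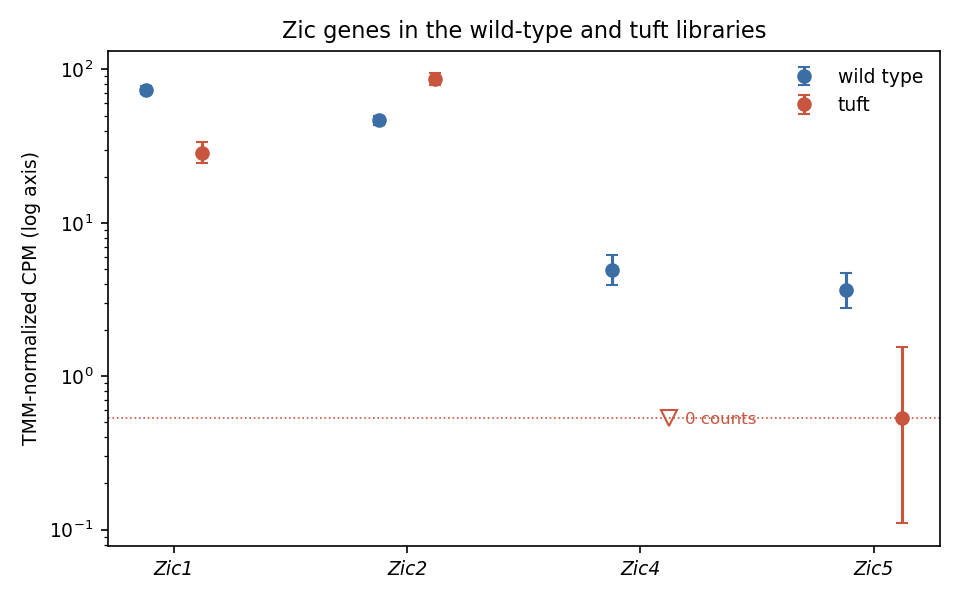
Normalized CPM (log axis) of the 4 Zic genes in the wild-type (blue) and *tuft* (red) libraries, with exact 95% counting intervals. The open triangle marks the 0 counts of *Zic4* in *tuft*, drawn at the dotted line for 3 counts (0.535 normalized CPM). *Zic2* is the member whose *tuft* point is clearly above its wild-type point.

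The 4 genes together had 2104 counts in wild type and 649 in *tuft*, or 129 and 116 normalized CPM, a fold change of 0.898 (0.821 to 0.981). With library totals alone the fold change was 0.683. Within this sum, *Zic1* made up 57.2% (55.0 to 59.3) in wild type and 24.8% (21.5 to 28.3) in *tuft*. *Zic2* made up 36.1% (34.1 to 38.2) and 74.7% (71.2 to 78.0). *Zic4* made up 3.85% (3.07 to 4.76) in wild type and 0 of 649 counts in *tuft*, which allows a share of up to 0.567%. *Zic5* made up 2.85% (2.18 to 3.66) and 0.462% (0.0954 to 1.34). Shares within a library do not depend on the normalization. The count of *Zic2* relative to *Zic1* was 0.632 (0.576 to 0.692) in wild type and 3.01 (2.52 to 3.62) in *tuft*, a change of 4.77 times (3.89 to 5.86).

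**Figure D2:**
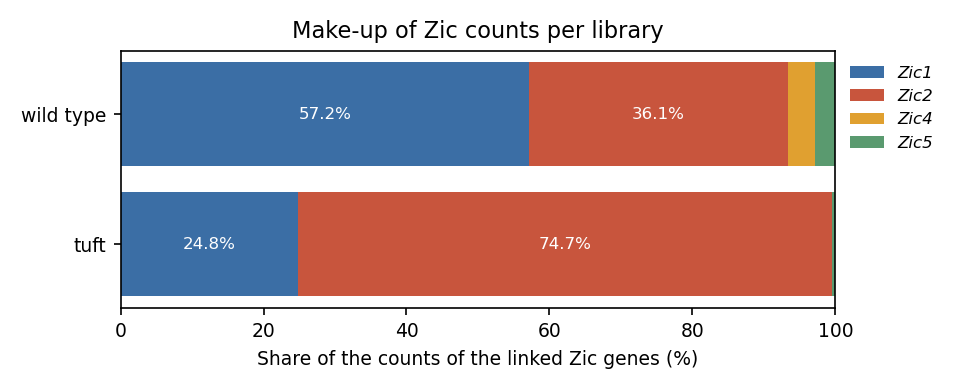
Share (%) of the summed counts of the 4 Zic genes held by each member, for the wild-type library (2104 counts) and the *tuft* library (649 counts). The *Zic1* share is 57.2% in wild type and 24.8% in *tuft*, and the *Zic2* share is 36.1% and 74.7%.

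Per kilobase of its longest annotated coding transcript, *Zic2* was the highest member in both libraries. In wild type *Zic2* was at 17.8 normalized CPM per kilobase (16.5 to 19.1) and *Zic1* at 13.1 (12.4 to 13.9). They were followed by *Zic4* at 1.27 (1.01 to 1.58) and *Zic5* at 0.770 (0.588 to 0.992). Neighbors in this order did not overlap in their counting intervals. In *tuft* *Zic2* was at 33.0 (30.2 to 36.1) and *Zic1* at 5.12 (4.36 to 5.97), and *Zic5* (0.112, 0.0231 to 0.328) could not be ranked against *Zic4* (0 to 0.169). The order of *Zic1* and *Zic2* in wild type depends on the length taken. Per kilobase of coding sequence, *Zic1* was at 54.8 and *Zic2* at 29.3 in wild type, and *Zic2* at 54.4 and *Zic1* at 21.3 in *tuft*.

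Of the 4 members, 3 were at least 2-fold lower in *tuft* and none was at least 2-fold higher. Across the 17140 genes with a count in either library, 30.6% were at least 2-fold lower and 17.5% at least 2-fold higher, and across the 13979 genes whose counts summed to at least 10 these shares were 37.5% and 21.3%. The median log2 fold change of the members was -2.07, beside -0.45 over the 13979 genes. For these values a count under 3 in 1 library was set to 3. Folds of this size were common at the level of every member. Among the 2651 genes whose mean normalized CPM was within 1.5 times that of *Zic1*, 23.4% were at least 2-fold lower and 16.9% were as low as *Zic1*. Among the 2452 genes at the level of *Zic2*, 26.8% had a fold change as high. At the mean levels of *Zic4* and *Zic5*, 74.2% of 1040 and 77.7% of 990 genes were at least 2-fold lower. Their median log2 fold changes were -2.83 and -2.65. For genes chosen by wild-type level alone, 56.1% and 61.5% were at least 2-fold lower, with medians of -1.86 and -2.30. Chosen in this way, 29.0% of 2373 genes at the level of *Zic1* were at least 2-fold lower and 21.7% were as low. Of 2782 genes at the wild-type level of *Zic2*, 21.1% had a fold change as high.

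The low members lie where the *tuft* library was sparse. At the mean level of *Zic4*, 482 of 1040 genes (46.3%) had no count in *tuft*, whereas 0.769% had none in wild type. At the level of *Zic5*, 66.9% of 990 genes had at most 3 counts in *tuft*. When the comparison genes were chosen by their wild-type level alone, 33.7% of genes at the level of *Zic4* had no count in *tuft* and 52.1% at the level of *Zic5* had at most 3. A count of 0 or 3 in *tuft* was therefore common for genes of this level. Only 2 of the 2651 genes at the level of *Zic1* had no count in *tuft*, so that *Zic1* and *Zic2* do not lie in this range.

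**Figure D3:**
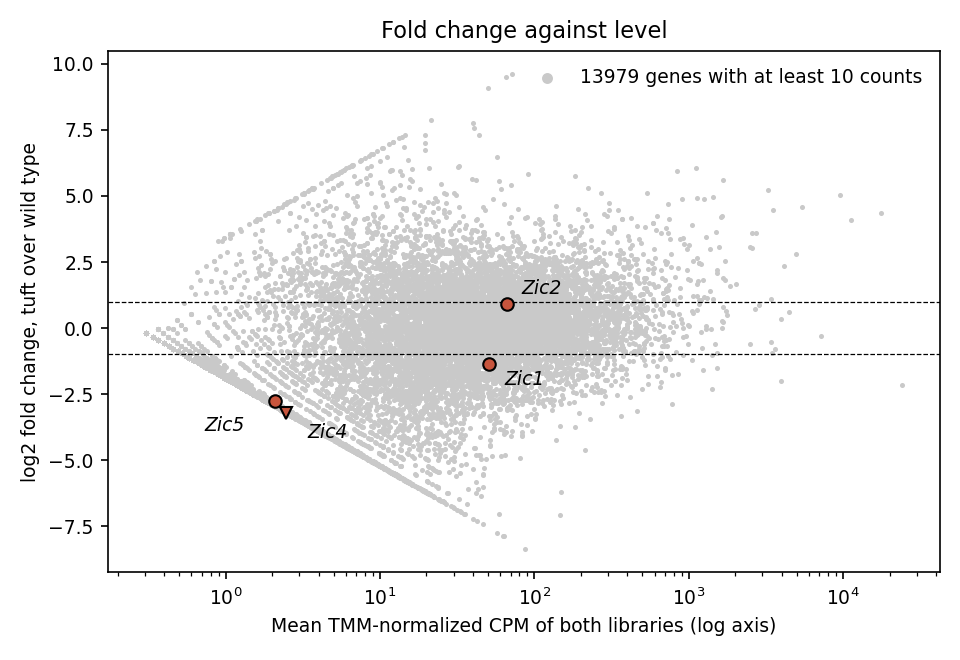
Log2 fold change (*tuft* over wild type) against mean normalized CPM (log axis) for 13979 genes (gray), with the Zic genes in red and dashed lines at 2-fold. *Zic4*, drawn as a triangle at its bound, and *Zic5* lie on the lower edge where genes have few or no counts in *tuft*, and *Zic1* and *Zic2* lie inside the cloud.

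The linked genes were compared within each library, which needs no normalization. In wild type the ratios of counts were alike, at 14.9 (11.9 to 18.8) for *Zic1* to *Zic4* and 12.7 (9.73 to 16.8) for *Zic2* to *Zic5*. These ratios leave out length. Per kilobase of the longest coding transcript, *Zic1* and *Zic4* were at 13.1 and 1.27 normalized CPM, and *Zic2* and *Zic5* at 17.8 and 0.770. Per kilobase of coding sequence they were at 54.8 and 4.67, and at 29.3 and 1.96. How alike the pairs were in wild type therefore depends on the length taken. In *tuft* the *Zic2* to *Zic5* ratio was 162 (55.0 to 787), which is 12.8 times that of wild type (4.12 to 63.9). The *Zic1* to *Zic4* ratio in *tuft* was at least 43.1 by its interval, and with 3 counts taken for *Zic4* it was 3.61 times that of wild type. The exact lower limit of this change was 2.83 times. In other words, *Zic4* made up 6.31% of the counts of its pair in wild type and 0 of 161 in *tuft*, which allows up to 2.27%. *Zic5* made up 7.32% (5.63 to 9.32) in wild type and 0.615% (0.127 to 1.79) in *tuft*. In both pairs the less abundant gene in wild type was the one with the lower fold change. Over all genes, fold changes were also lower at such levels. Genes at the wild-type levels of *Zic4* and *Zic5* had median log2 fold changes of -1.86 and -2.30. At the wild-type levels of *Zic1* and *Zic2* the medians were -0.20 and -0.17. The part of level in the pair ratios was not tested.

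Such a spread between divergent neighbors was common in these libraries. In NCBIM37, 3025 pairs of neighboring protein-coding genes were annotated on opposite strands pointing away from each other with starts within 25 kb. Of these, 1466 pairs other than the Zic pairs had at least 10 counts for each gene. The log2 fold changes of their genes differed by a median of 1.83. The difference was 1.85 for *Zic1* and *Zic4*, and 49.4% of the pairs were as far apart. It was 3.67 for *Zic5* and *Zic2*, and 20.1% were as far apart, or 22.1% of the 625 pairs with a gene at 10 normalized CPM or less in wild type. In 12.9% of pairs both genes were at least 2-fold lower, as *Zic1* and *Zic4* were. The genes of 50.6% of pairs had the same sign.

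**Figure D4:**
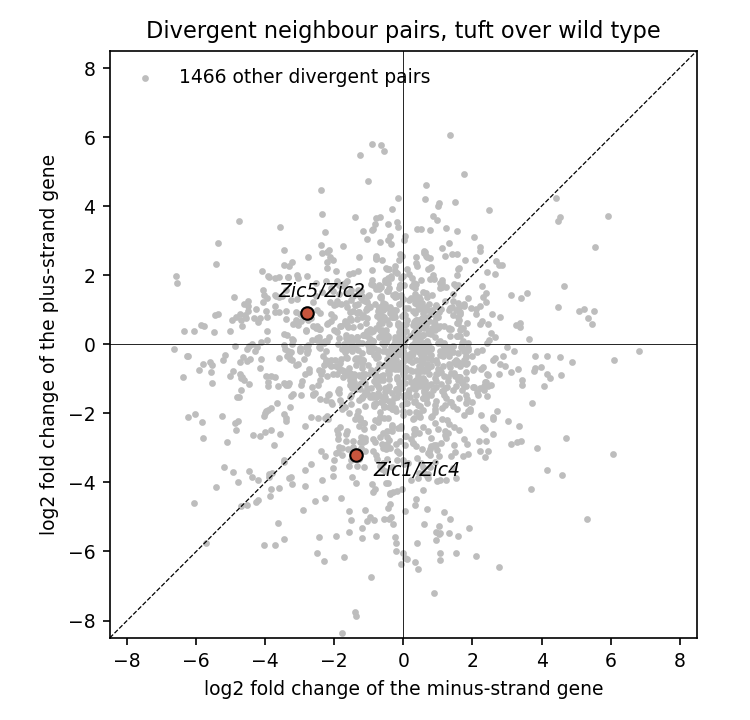
Log2 fold changes (*tuft* over wild type) of the minus-strand and the plus-strand gene of divergent neighbor pairs, with the Zic pairs in red, 1466 other pairs in gray and equal change on the dashed line. *Zic1*/*Zic4* lies at the lower left and *Zic5*/*Zic2* in the upper left, both among many other pairs.

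The nearest genes with a row in the tables were followed on either side. Between *Zic5* and *Zic2* lies the long noncoding RNA gene *2610035F20Rik*, with 18 counts in wild type and none in *tuft*. By its exact interval it was at least 1.51-fold lower. On the *Zic5* side, *Gm5089*, also a long noncoding RNA gene, had 10 counts and none. On the *Zic2* side, *Pcca*, which encodes a subunit of the mitochondrial propionyl-CoA carboxylase, had 403 counts in wild type and 16 in *tuft*, and was 8.65-fold lower (5.26 to 15.3). The fold interval of *Gm5089* reached from 0 to 1.30 and holds 1, so no direction can be given for it. Near *Zic1* and *Zic4*, *Tbc1d2b*, which is 1087 kb away, was 4.31-fold higher (3.91 to 4.76), and *Plscr5* on the other side had no count in either library.

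The counts of the lists that follow are to be read against all genes with at least 10 counts, of which 37.5% were at least 2-fold lower and 21.3% at least 2-fold higher, with a median log2 fold change of -0.45. Among the relatives of the family in the GLI superfamily, 2 of 6 genes were at least 2-fold lower and none was at least 2-fold higher, with a median log2 fold change of -0.40. *Gli3*, the main repressor of hedgehog targets, had 2922 counts in wild type and 1282 in *tuft* (1.28-fold, 1.20 to 1.36). *Gli1*, a target and activator of the pathway, had the highest fold change of this list at 1.42 (1.27 to 1.59). *Gli2*, the main activator, was lower at 0.458 (0.399 to 0.523). *Glis3*, a relative known from pancreas and kidney, had 136 counts in wild type and none in *tuft*. It was 15.6-fold lower with 3 counts taken for *tuft*, and its exact interval reached up to a fold change of 0.0801. With library totals alone, the median over all genes was shifted by -0.39 on the log2 scale, which is more than the log2 fold change of *Gli3* (0.35) and less than that of *Gli1* (0.51). Of 10 genes whose products have been reported to bind ZIC proteins, 5 were at least 2-fold lower and 2 at least 2-fold higher (median log2 fold change -0.93). The lowest was *Mbd3*, a subunit of the NuRD repressor complex (0.276, 0.251 to 0.302). The counts of both lists were near the shares over all genes. The highest of the partners was *Tcf7l2*, a DNA-binding partner of beta-catenin in WNT signaling (4.25-fold, 3.82 to 4.72).

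Genes of the dorsal neural tube and roof plate, where Zic genes are expressed, went in both directions. Of 12 with at least 10 counts, 5 were at least 2-fold lower and 2 at least 2-fold higher (median -0.32), again near the 37.5% and 21.3% over all genes. *Wnt1*, a ligand of the dorsal midline, had 57 counts in wild type and none in *tuft*. It was 6.52-fold lower with 3 counts taken for *tuft*, and its exact interval reached up to a fold change of 0.195. *Pax3*, a dorsal transcription factor needed for neural tube closure, had 295 and 31 counts (fold change 0.306, 0.204 to 0.444). *Lmx1b*, a transcription factor of the isthmus and roof plate, had 71 and 172 counts and was 7.05-fold higher (5.32 to 9.44). Of 15 genes of holoprosencephaly and the midline, the condition that *Zic2* mutations cause, 4 were lower and 3 higher by at least 2-fold (median 0.17), which is no more than the 37.5% and 21.3% over all genes. *Shh*, the ventral midline signal, had 294 and 557 counts and was 5.52-fold higher (4.78 to 6.38). *Foxh1*, a transcription factor of NODAL signaling, had 68 counts in wild type and 1 in *tuft*, a fold change of 0.0428 (0.00107 to 0.247), or a log2 fold change of -2.96 with 3 counts taken for *tuft* as in the median of the list.

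RNA levels of marker genes of the tissues in the dissected heads also differed between the libraries, in both directions within most lists. Against 37.5% lower and 21.3% higher over all genes, 1 of 9 neural plate genes was at least 2-fold lower and 2 at least 2-fold higher. Their summed level was 873 normalized CPM in wild type and 1166 in *tuft*, with *Ncam1* lowest and *Sox1* highest (3.16-fold, 2.87 to 3.47). The median log2 fold change of this list was 0.01. The neural crest list (2 lower and 2 higher of 7) had a median of -0.65 but summed to 191 and 501. *Sox9* and *Sox10* held 165 and 228 of the *tuft* sum. *Sox10* was 11.1-fold higher (9.86 to 12.6), and *Snai2* had 36 and 0 counts. The head mesenchyme list (2 lower and 2 higher of 9, median 0.01) summed to 348 and 479.6. In it *Twist1* was 3.14-fold higher (2.88 to 3.42) and *Prrx2* had 301 and 0 counts. The surface ectoderm list (2 lower and 1 higher of 9, median 0.38) summed to 715 and 1109. In it *Krt8* was 3.14-fold higher (2.95 to 3.34) and *Esrp1* had 750 and 17 counts. Endothelial genes were at least 2-fold lower for 5 of 6 (median -1.71, sums of 247 and 77.3). *Pecam1* and *Erg* were at 0 in *tuft* and *Tie1* was highest at a fold change of 0.540 (0.439 to 0.659). Yolk sac genes were lower for 4 of 6 and higher for 1 (median -3.78, sums of 1267 and 246). *Apoa4* was at 0 in *tuft* and *Amn* was 2.01-fold higher (1.69 to 2.38). Erythroid genes were lower for 3 of 6 and higher for 2 (median -1.05, sums of 2792 and 40709.5). The embryonic globin genes *Hbb-y* (571 and 18521 normalized CPM, 32.4-fold) and *Hba-x* (1235 and 21165, 17.1-fold) made up nearly all of the *tuft* sum. *Hbb-bh1*, also an embryonic globin gene, was at 944 and 1017 (1.08-fold, 1.04 to 1.11). The erythroid transcription factor genes *Gata1* and *Klf1* had no count in *tuft*. The part of these differences in the Zic values was not tested.

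**Figure D5:**
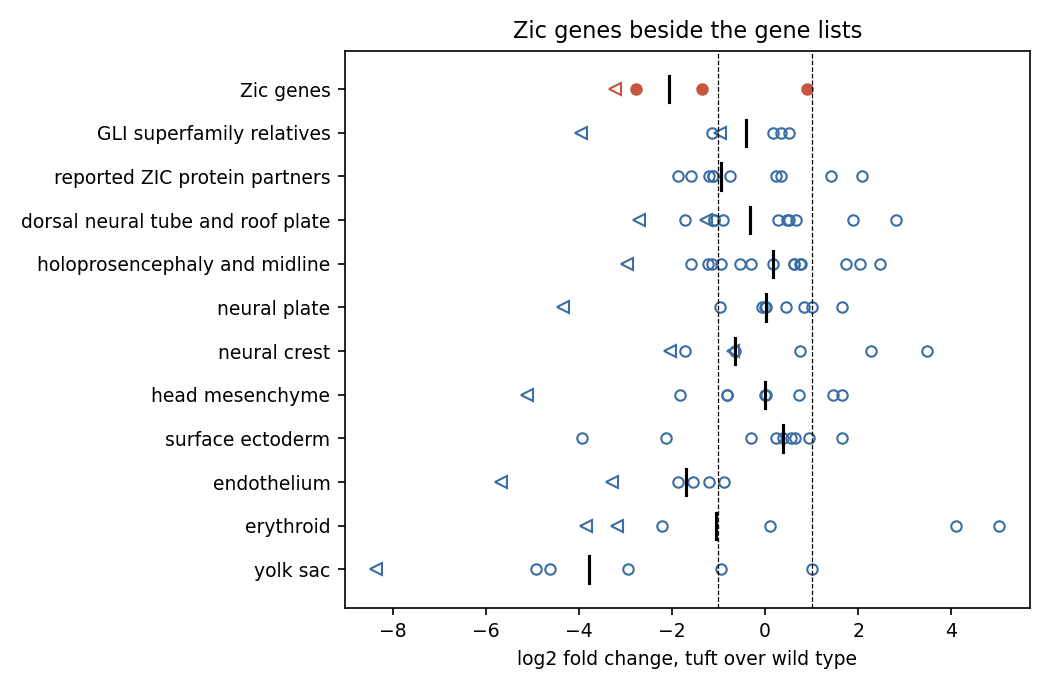
Log2 fold change (*tuft* over wild type) of each gene with at least 10 counts, for the Zic genes (red) and the lists (blue), with black bars at the medians and dashed lines at 2-fold. Left-pointing triangles mark genes with fewer than 3 counts in *tuft*, drawn with 3 counts taken. The Zic median is -2.07, and every list holds genes on both sides of 0 apart from the endothelial one.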

How the data were processed

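RNA of the E9 rostrum, pooled from 3 embryos per genotype, was measured by RNA-Seq and is given as 1 wild-type and 1 *tuft* column of counts. The authors deposited raw counts per gene symbol. Poly-A RNA was sequenced from 1 end on the Ion Proton platform, and the authors filtered the reads with PRINSEQ, aligned them to mm10 with TopHat 2.0.14 and Bowtie2 2.2.5 and counted them with htseq-count. The overlap mode, strand setting and gene models of the counting are not given in the sources used here, so reads of overlapping genes such as *Zic1* and *Zic4* may be shared or dropped. The 5 summary lines of htseq-count were kept out of totals. Of all entries, 51.4% in wild type and 59.2% in *tuft* were alignments that were not unique.

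Libraries were scaled with TMM in edgeR 4.0.16 (factor of *tuft* relative to wild type 0.761). With 1 library per genotype, edgeR and DESeq2 have no residual degrees of freedom, so no test was run. NOISeq-sim, the program of the study, rests on simulated libraries and was not used. Fold changes are *tuft* over wild type with Clopper-Pearson intervals. Ratios between genes carry exact conditional intervals (scipy 1.17.1). Called means at least 2-fold. The calculation was tested on simulated data.

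Named genes are the members, *Tet1*, the nearest neighbors, and the lowest and highest of each list. *Sox2*, *Otx2*, *Gli2*, *Gli3*, *Pax3*, *Pax7*, *Sox9*, *Hba-x*, *Hbb-bh1*, *Klf1* and *Erg* were named after their values were seen. Some results are not reported here. The members and lists were chosen with earlier results of these data known. Gene positions came from RefSeq of GRCm38.p6, in which 22550 of 24062 symbols were found, and transcript lengths, strands and neighbor pairs from GENCODE vM1 of NCBIM37, whose coordinates are not printed. Alternatives were library totals, the upper quartile, DESeq2 1.42.0 size factors, a minimum of 10 counts, folds of 1.5 and 4 and a prior count of 0.5. Library totals without *Rn45s* and the 10 genes with the most counts, and comparison genes chosen by wild-type level, were added after seeing the data.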

Additional observations from a re-analysis of the deposited data

How the results depend on the processing

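The count of 3 members at least 2-fold lower held under library totals, the upper quartile, DESeq2 size factors, TMM after a minimum of 10 counts and a fold of 1.5, and was 2 at a fold of 4. No member was at least 2-fold higher, and at a fold of 1.5 there was 1 (*Zic2*). Library totals moved the log2 fold change of *Zic1* from -1.36 to -1.75 and of *Zic2* from 0.89 to 0.50. Library totals without *Rn45s* and the 10 genes with the most counts, chosen after seeing the data, gave -1.73 and 0.52. Of the 36 alternative values, these and the count at 1.5-fold were the 5 that lay outside the counting interval of the reported value or, for a count, moved by more than 1.5 times. With a prior count of 0.5, the *Zic2* to *Zic5* ratio in *tuft* was 11.04 times that of wild type. The *Zic1* to *Zic4* ratio was 21.9 times that of wild type. This is above the reported 3.61 at 3 counts but inside its interval, which has no upper limit. For a gene at 0 this value depends on the prior count. No paired analysis was possible because each genotype has 1 column of counts. With no second library, the spread between pools is not known, and the 3 and 0 counts of *Zic5* and *Zic4* in *tuft* limit what can be said of their size of change.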
